A study of Mus musculus with 6 samples.

Results

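The immediate early AP-1 and EGR genes are transcripts that cells switch on within minutes of a stimulus, before any new protein is made. In the gastrocnemius, the large calf muscle, 10 genes were followed under this name, out of 19458 listed genes. The 10 were Egr1, Egr3, Fos, Fosb, Jun, Junb and Atf3, with Ier2, Arc and Socs3 from outside the AP-1 and EGR families. They were selected on the contrast of knockout with wild type itself, because Egr1, Junb and Socs3 had higher values in the knockout, and the other 7 were set beside them as inducible genes that might or might not follow. The fold changes of all 10 are therefore a description, with standard errors but no test. Each symbol was found once in every library's table, and all 10 passed the filter on low counts.

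The libraries were RNA-seq profiles of gastrocnemius from C57BL/6 mice aged 9 weeks, 3 from Tmem182 knockout mice (genotype label tmem182-/-) and 3 from wild-type mice, with no treatment named. Tmem182 encodes a membrane protein found mainly in skeletal and heart muscle. The labels do not say how the allele was made, nor that the libraries came from different mice; p-values therefore cover the spread between these samples alone, which may be technical. The source labels of knockout libraries 2 and 3 name tmem183-/- and tmem184-/-, against the genotype field, and the protocol text speaks of cultured muscle cells, against the tissue label. Tmem182 was at 6.23, 4.30 and 2.17 FPKM in Tmem182 knockout muscle, while wild-type muscle had 147.48, 121.39 and 120.97 FPKM, where FPKM is a fragment count scaled to transcript length and library size (log2 fold change -5.02, edgeR quasi-likelihood adjusted p = 0.00391). The 8 genes taken to define adult skeletal muscle (Myh4, Acta1, Ckm, Mylpf, Tnnt3, Casq1, Ryr1 and Atp2a1) summed to between 81810 and 109700 FPKM in the knockout libraries and between 103100 and 117000 FPKM in the wild-type libraries.

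Fos and Jun proteins pair through leucine zippers to form AP-1, a dimeric transcription factor, and Jun proteins also pair with Atf3. EGR proteins are zinc-finger factors that bind GC-rich sites. In muscle both families are known to respond to contraction, stretch and injury, and their messengers are short-lived, so that a steady-state level reflects recent signalling. Kinases of the MAP kinase cascades switch on their promoters through serum response factor and CREB, while the STAT3 branch of cytokine signalling drives Socs3, whose protein in turn shuts that signalling off.

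Promoters of 6 members were found in the RefSeq table of build GRCm38.p6: those of Atf3, Jun, Fosb, Junb, Socs3 and Fos; Egr1, Egr3, Ier2 and Arc were not matched. The 160 bases before the start site are shown for 4 of them, Junb and Socs3 because their means were higher in the knockout and Fos and Jun as their AP-1 relatives. Capitals mark matches to the motifs named in the next paragraph. The Fos window lies at chr12:85473730-85473889 on the plus strand, and those of Jun (chr4:95052223-95052382), Junb (chr8:84978749-84978908) and Socs3 (chr11:117969367-117969526) on the minus strand; the RefSeq start of Socs3 lies inside the GENCODE span given further on.
Junb: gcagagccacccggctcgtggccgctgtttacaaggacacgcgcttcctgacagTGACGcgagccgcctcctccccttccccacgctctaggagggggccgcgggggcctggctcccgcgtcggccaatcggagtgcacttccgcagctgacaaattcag
Socs3: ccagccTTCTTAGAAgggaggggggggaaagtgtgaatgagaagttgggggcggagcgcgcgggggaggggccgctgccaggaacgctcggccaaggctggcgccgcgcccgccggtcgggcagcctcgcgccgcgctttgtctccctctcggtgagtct
Fos: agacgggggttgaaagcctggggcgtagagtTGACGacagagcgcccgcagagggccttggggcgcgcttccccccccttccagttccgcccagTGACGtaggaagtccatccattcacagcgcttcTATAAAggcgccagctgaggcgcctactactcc
Jun: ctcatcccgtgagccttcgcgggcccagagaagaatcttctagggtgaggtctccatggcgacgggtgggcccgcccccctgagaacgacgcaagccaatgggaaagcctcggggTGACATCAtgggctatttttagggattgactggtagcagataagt

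Motifs were searched on both strands in the 250 bases before each start site, in 13013 promoter windows of 10139 tested genes. The motif TGACG, part of the CREB element and looked for after the sequences had been seen, was in 4 of the 6 members (Atf3, Fos, Fosb and Junb) and in 25.6% of all windows; it overlaps TGACNTCA where the open letter is G. Jun alone of the 6 held TGACNTCA, a form shared by CREB and Jun dimers, found in 6.02% of windows. Socs3 alone held TTCNNNGAA, the core of STAT elements, found in 5.83% of windows. GCGNGGGCG, the EGR element, was in Fosb and Socs3 and in 8.72% of windows, and for Socs3 it lay beyond the stretch printed here. TATAAA was in Fos, 33 to 28 bases before its start, and in 6.85% of windows. None of the 6 windows held TGANTCA, the AP-1 element (4.50% of windows), CCGGAA, an ETS element (20.6%), or a CArG box, the element of serum response factor (1.18%); this says only that these letters are not in this stretch.

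Among the members, Egr1 had the clearest separation between genotypes, Junb and Ier2 were also higher in every knockout library by smaller amounts, and Socs3 and Arc were high in knockout libraries 1 and 2 but not in library 3. Fos, Fosb and Egr3 overlapped between genotypes. Jun was lower on average in knockout muscle, and Atf3 differed more within each genotype than between them. Fitted levels were higher in the knockout for 9 of the 10, and for 6529 of the 12774 genes tested. For 3 members (Egr1, Junb and Ier2) the groups did not overlap, with the knockout above, and for 0 with the knockout below; over all 12774 genes tested these shares were 5.86% and 1.7%. On counts scaled to library size (CPM) with TMM factors, which correct for library composition, the same count of 3 stood against 4.67% of all genes. Since this contrast chose the members, nothing is read from that difference.

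**Figure D1:**
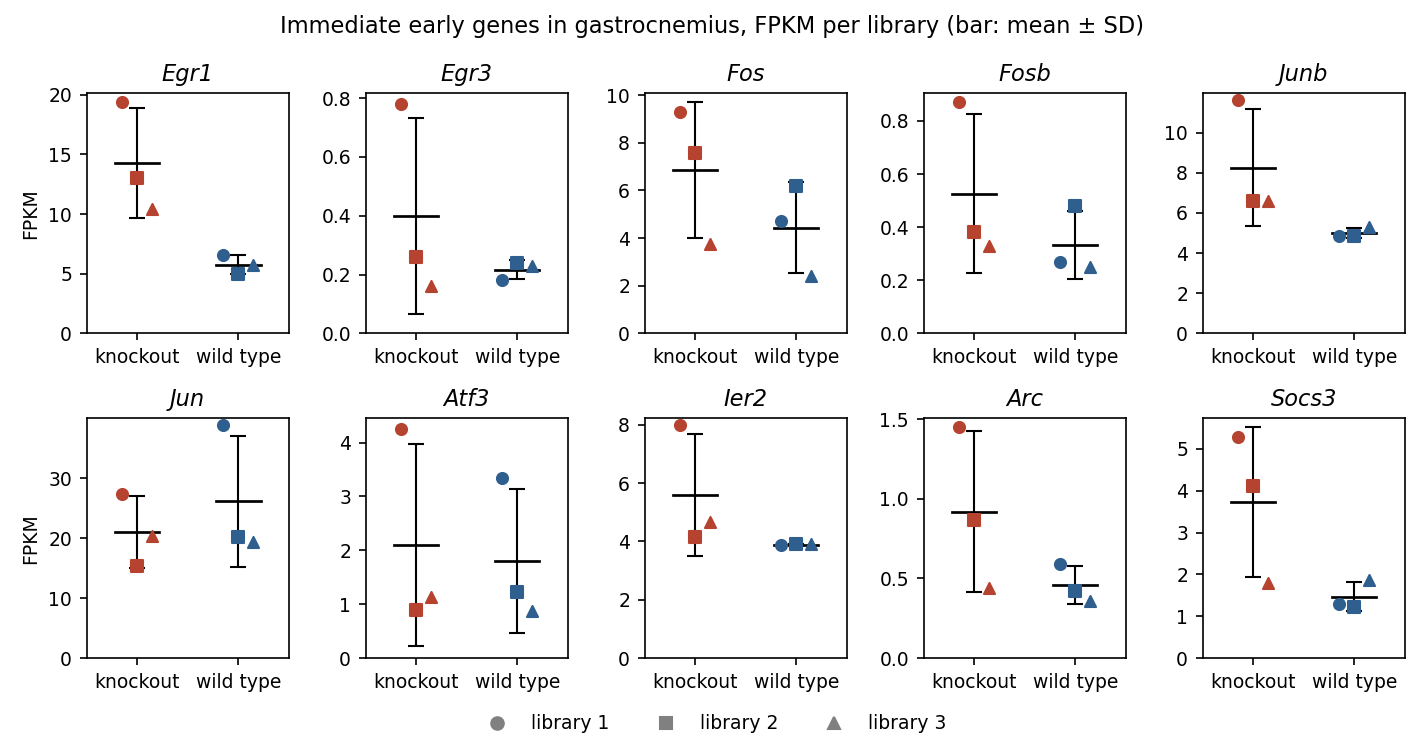
FPKM of the 10 members in each library, knockout left of wild type, with each axis starting at 0; symbols mark the library number, and black bars the mean and SD of 3 libraries. Egr1, Junb and Ier2 have all knockout points above all wild-type points, while Jun and Atf3 have high points in both groups.

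Egr1 encodes the founding EGR factor. It stood at 19.38, 12.98 and 10.46 FPKM in the knockout libraries (14.3 ± 4.60, SD, n = 3), against 6.60, 5.01 and 5.71 FPKM in the wild-type libraries (5.77 ± 0.797, SD, n = 3). The lowest knockout library was thus well above the highest wild-type library, and the knockout mean was 2.47 times that of wild type. The log2 fold change fitted to counts was 1.22 (SE 0.16), and it ran from 1.07 to 1.34 when each library was left out in turn. These values rest on 578 to 970 counts per library in the knockout and 289 to 359 in wild type. The gene has 2 exons on the plus strand of chromosome 18, from 34859823 to 34864984 (GENCODE M21, GRCm38), and no other annotated gene overlaps it.

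Egr3, a relative of Egr1 that is known for its need in muscle spindle development, was near the floor of detection. It was at 0.78, 0.26 and 0.16 FPKM across the knockout trio and 0.18, 0.24 and 0.23 FPKM across the wild-type trio, from 11 to 50 and 12 to 17 counts. One library set its mean apart: the log2 fold change was 0.77 (SE 0.52) with all libraries and 0.0017 (SE 0.39) without knockout library 1. Counting error alone amounts to a coefficient of variation of 25.8% at the mean wild-type count, and the 3 wild-type libraries varied by 20.0%. Egr3 lies on the plus strand of chromosome 14, from 70077203 to 70082614. With Egr2 and Egr4 counted in, EGR transcripts summed to 20.78, 13.36 and 10.86 FPKM where Tmem182 was knocked out, compared with 7.04, 5.35 and 6.22 FPKM in wild-type muscle, and Egr1 made up between 91.8% and 97.2% of the sum in all 6.

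The Fos subunits of AP-1 varied as much within a genotype as between them. Fos was at 9.29, 7.55 and 3.74 FPKM in Tmem182 knockout muscle, while wild-type muscle had 4.72, 6.17 and 2.40 FPKM. Knockout libraries 1 and 2 lay above all wild-type libraries, but library 3 lay below 2 of them. Knockout muscle averaged 6.86 ± 2.84 FPKM and wild-type muscle 4.43 ± 1.90 FPKM (SD, n = 3 each), with a log2 fold change of 0.54 (SE 0.37, 95% interval -0.31 to 1.39) that ran between 0.26 and 0.88 with each library left out. Fos has 4 exons and runs along the plus strand of chromosome 12, from 85473890 to 85477273.

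Fosb, a second Fos subunit that also gives rise to the long-lived splice form known from brain, was scarcer. It had 0.87, 0.38 and 0.33 FPKM across the knockout trio and 0.27, 0.48 and 0.25 FPKM across the wild-type trio, from 22 to 52 and 17 to 34 counts. Knockout library 1 was highest of the 6, and wild-type library 2 lay above the other 2 knockout libraries. On the log2 scale Fosb differed by 0.52 (SE 0.41) with all libraries and 0.11 (SE 0.39) without knockout library 1. Fosb lies on the minus strand of chromosome 7, from 19302696 to 19310051.

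Junb, a Jun subunit that often restrains Jun, was at 11.60, 6.58 and 6.58 FPKM where Tmem182 was knocked out, compared with 4.83, 4.87 and 5.30 FPKM in wild-type muscle. The wild-type libraries lay within 1.10-fold of each other and all below the knockout. Knockout muscle averaged 8.25 ± 2.90 FPKM and wild-type muscle 5.0 ± 0.26 FPKM (SD, 3 libraries each). The log2 fold change was 0.62 (SE 0.17), 0.43 (SE 0.13) without knockout library 1, and at most 0.71 with any other library left out. The coding transcript of Junb has 1 exon, and the gene lies on the minus strand of chromosome 8, from 84974484 to 84978718. Its annotated span overlaps Prdx2 on the opposite strand by 351 bases, none of them in the coding transcript of Junb.

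Jun, which encodes the AP-1 subunit c-Jun, was the most abundant member and had a lower mean in knockout muscle. It was at 27.30, 15.35 and 20.41 FPKM in Tmem182 knockout muscle, while wild-type muscle had 38.77, 20.13 and 19.38 FPKM. Wild-type library 1 was far above the rest, and without it the groups lay close together. Its log2 fold change was -0.38 (SE 0.25, 95% interval -0.96 to 0.21) with all libraries and -0.05 without wild-type library 1. Jun is a 1-exon gene on chromosome 4, from 95049034 to 95052222 on the minus strand, and 689 bases of it lie within the span of the antisense gene Junos; no source used here says whether reads were counted by strand, so reads of Jun and Junos cannot be told apart there.

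Within the Jun subunits the balance differed between genotypes. Junb stood at 42.5%, 42.9% and 32.2% of the Jun level (FPKM) in the knockout libraries, against 12.5%, 24.2% and 27.3% in the wild-type libraries, so the groups did not overlap. The third subunit gene, Jund, which most cells express without a stimulus, was at 23.76, 11.70 and 14.63 FPKM across the knockout trio and 23.90, 16.46 and 15.99 FPKM across the wild-type trio. As a share of all 3 transcripts Junb made up 18.0% ± 1.94 in knockout muscle, against 10.6% ± 3.09 in wild-type muscle (SD, n = 3 each). Summed FPKM of the 3 genes were 62.66, 33.63 and 41.62 in knockout muscle and 67.50, 41.46 and 40.67 in wild-type muscle, with wide overlap. These ratios use the levels that chose the members and carry no test.

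**Figure D2:**
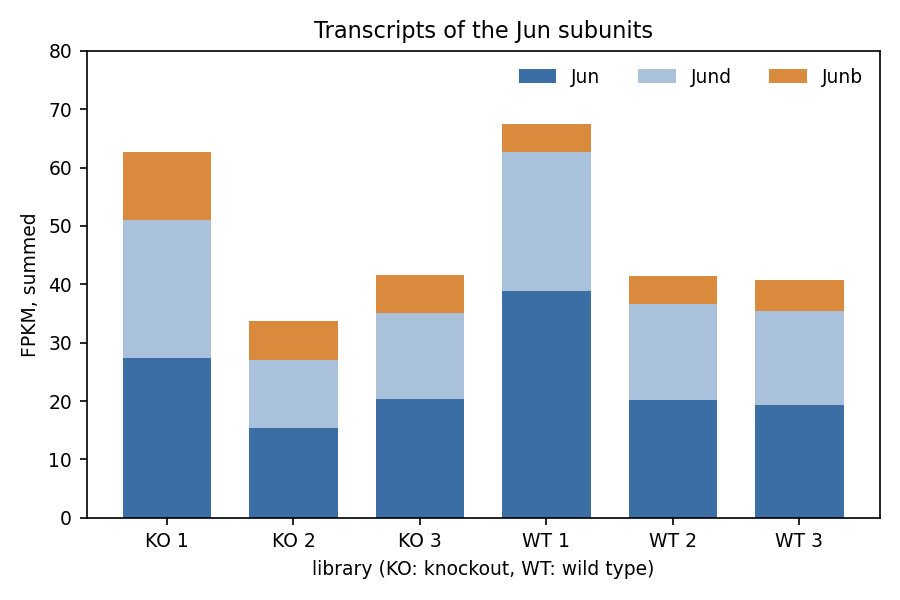
Stacked FPKM of Jun, Jund and Junb in each library, knockout libraries left of wild-type libraries, on an axis from 0. The summed height is largest in library 1 of both groups (62.66 FPKM in the knockout, 67.50 FPKM in wild type), while the Junb segment is larger in each knockout library than in any wild-type library.

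Atf3, a stress-induced partner of Jun, was the member with the widest spread. It was at 4.25, 0.90 and 1.13 FPKM where Tmem182 was knocked out, compared with 3.34, 1.22 and 0.87 FPKM in wild-type muscle. One library of each genotype, library 1 in both cases, stood at about the same high level and the other 4 near 1 FPKM. The coefficient of variation on CPM was 76.3% in the knockout and 67.9% in wild type, where counting error alone gives about 12% and 12.5%. For Atf3 the log2 fold change was 0.09 (SE 0.61); leaving out knockout library 1 gave -0.75 and leaving out wild-type library 1 gave 0.80, so its sign was set by single libraries. Jun had the same 2 libraries on top. Atf3 has 4 exons on chromosome 1, from 191170296 to 191218039 on the minus strand, and a small RNA gene (Gm24748) on the opposite strand lies within its span, outside the exons of the coding transcript.

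Ier2, a nuclear protein of the immediate early response, was steadier than any other member in wild type. It was at 8.0, 4.16 and 4.66 FPKM in Tmem182 knockout muscle, while wild-type muscle had 3.87, 3.90 and 3.91 FPKM. All knockout libraries lay above wild type, but knockout libraries 2 and 3 by little, against counting errors of 8.31% and 9.68% at the mean knockout and wild-type counts. For Ier2 the fitted log2 fold change was 0.42 (SE 0.19) with all libraries and 0.22 (SE 0.15) without knockout library 1. Ier2 is a 1-exon gene on chromosome 8, from 84661331 to 84662852 on the minus strand.

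Arc encodes a cytoskeleton-associated protein best known from neurons, where it shapes synapses. It was at 1.45, 0.87 and 0.44 FPKM across the knockout trio and 0.59, 0.42 and 0.36 FPKM across the wild-type trio. The knockout libraries spanned a 3.30-fold range, and library 3 lay among the wild-type libraries. The log2 fold change was 0.90 (SE 0.38), and 0.56 (SE 0.36) without knockout library 1, from 20 to 72 counts per library. Arc has 3 exons on chromosome 15, from 74669083 to 74672570 on the minus strand.

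Socs3, the inhibitor of IL-6-type cytokine signalling, had 5.29, 4.12 and 1.79 FPKM where Tmem182 was knocked out, compared with 1.3, 1.23 and 1.87 FPKM in wild-type muscle. Although it was one of the 3 genes that chose the set, its groups overlapped, because knockout library 3 lay below wild-type library 3. Knockout muscle averaged 3.73 ± 1.78 FPKM and wild-type muscle 1.47 ± 0.351 FPKM (SD, n = 3 each), a ratio of 2.55. On the log2 scale the fitted difference was 1.24 (SE 0.35), 1.04 (SE 0.36) without knockout library 1 and 1.54 without knockout library 3. Socs3 has 2 exons on chromosome 11, from 117966079 to 117970047 on the minus strand.

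The order of levels per transcript length was nearly the same in both genotypes. By mean FPKM it ran Jun, Egr1, Junb, Fos, Ier2, Socs3, Atf3, Arc, Fosb, Egr3 in the knockout, and Socs3 and Atf3 changed places in wild type. In the knockout every gene overlapped its neighbour in that order. In wild type Jun lay apart from Egr1, Ier2 from Atf3, Socs3 from Arc and Fosb from Egr3, and the other neighbours overlapped. Among all tested genes Egr1 was at percentile 75.5 by its knockout mean and 56.2 by its wild-type mean, and Jun at percentiles 82.1 and 86.1. Egr3 was at percentiles 7.52 and 3.65.

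**Figure D3:**
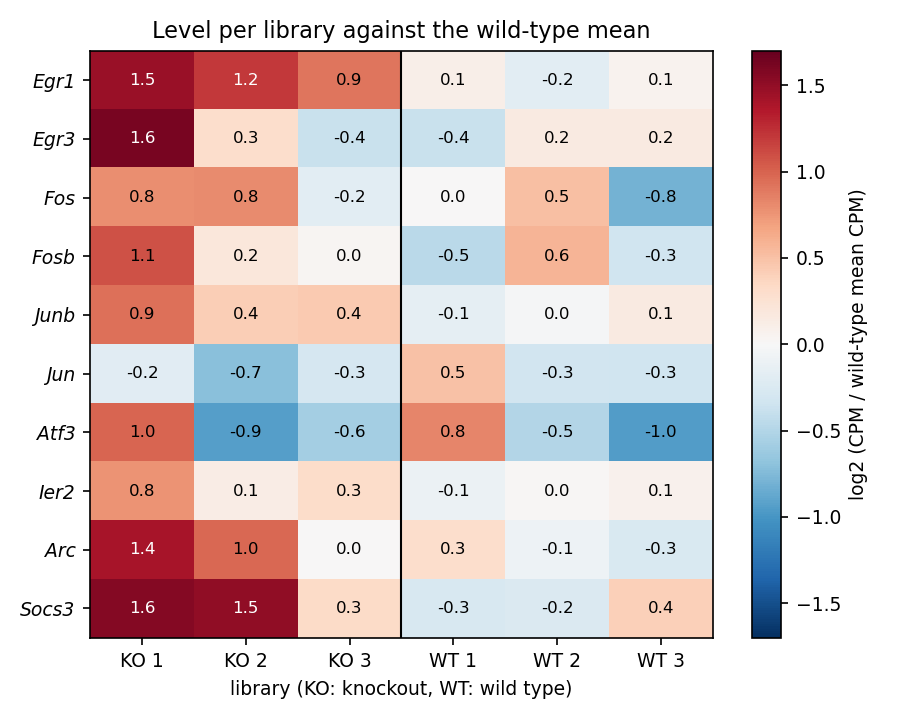
Level of each member in each library as log2 of its TMM-scaled CPM over the wild-type mean CPM, knockout libraries left of wild-type libraries; red is higher and blue lower than the wild-type mean. Knockout library 1 is red for every member but Jun (Egr3 at 1.61, Socs3 at 1.56), Egr1 lies between 0.91 and 1.47 in the 3 knockout libraries, and Atf3 is red in library 1 of both genotypes.

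Knockout library 1 was the highest of the 6 for 9 of the 10 members by FPKM and for 8 by TMM-scaled CPM, where Fos was slightly higher in knockout library 2. That library differed from the rest in composition: its 10 most abundant genes took 22% of its counts, against 28.2% to 31.9% in the other 5, and its TMM factor was 1.19 against 0.93 to 1.04. Of all genes tested, 62.2% had their highest FPKM in it and 29.9% their highest TMM-scaled CPM. Without it the median log2 fold change of the 10 members was 0.30, against 0.58 with all libraries; the medians over all genes were -0.007 and 0.005. Egr1, Junb and Ier2 were still higher in both remaining knockout libraries than in any wild-type library, as were 7.66% of all genes. Without knockout library 3 instead, 7 members lay apart in this way (Egr1, Egr3, Fos, Junb, Ier2, Arc and Socs3), against 14.3% of all genes.

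**Figure D4:**
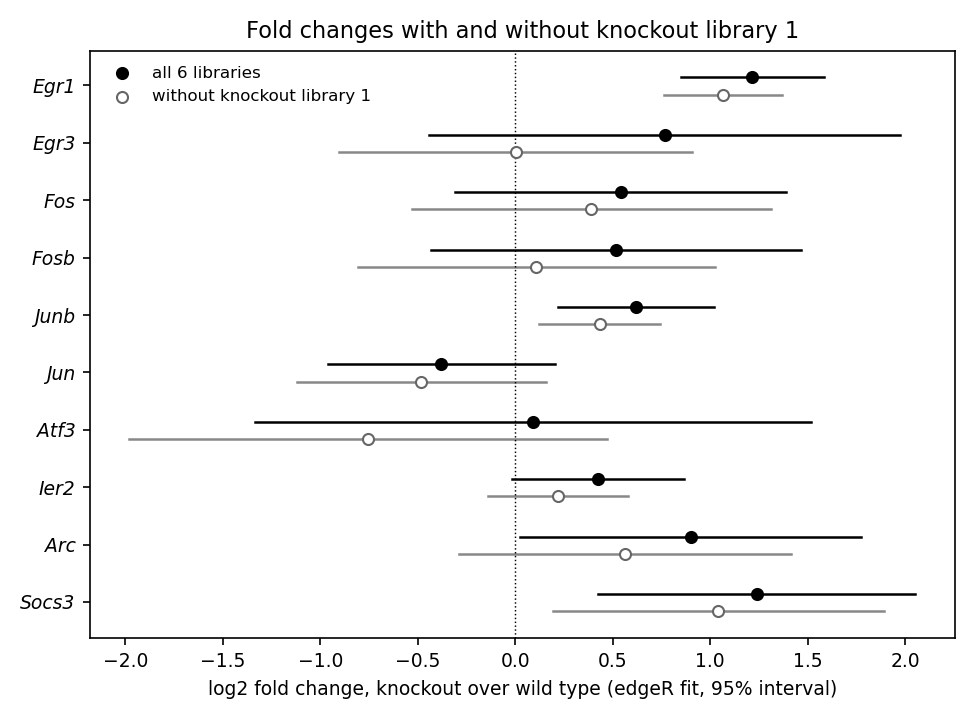
Log2 fold change of knockout over wild type for the 10 members from the edgeR fit, with 95% intervals, for all 6 libraries (filled) and without knockout library 1 (open). Egr1 stays near 1 in both (1.22 and 1.07), Egr3 moves to about 0, and the Atf3 estimate moves to -0.75.

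Most listed markers of other cell types were also highest in that library by FPKM, as were 62.2% of all genes tested (29.9% by TMM-scaled CPM). The markers were not counted by CPM, and their part in the results was not tested. In bulk tissue, fewer cells of a type and less RNA per cell cannot be told apart. The 7 macrophage and neutrophil markers summed to 15.79, 4.66 and 5.94 FPKM in the knockout libraries and 4.58 to 6.33 FPKM in wild type; all 5 tested ones were highest in knockout library 1. S100a8 and S100a9 were at 0 in at least 1 library, and no other marker of these lists was at 0 in any. The 7 endothelial markers summed to 59.1 to 139.9 FPKM in the knockout and 59.82 to 101.8 FPKM in wild type, with 6 highest in knockout library 1. Sums of the 5 Schwann cell markers were 35.49 to 224.4 FPKM in the knockout and 11.8 to 150.5 FPKM in wild type, all 5 highest in that library. The 5 fibroblast markers gave 165.3 to 325.8 FPKM in the knockout and 132.6 to 312.7 FPKM in wild type, with 4 highest there. The 4 adipocyte markers gave 17.56, 1.53 and 6.54 FPKM in the knockout and 2.15 to 3.05 FPKM in wild type, and all 3 tested ones were highest there. Red blood cell markers, 5 in number, reached sums of 444.5 to 1895 FPKM with Tmem182 knocked out, against 793.8 to 1100 FPKM for wild-type libraries. For the 7 smooth muscle and pericyte markers the sums were, in the same order, 1389 to 1703 FPKM and 1294 to 1537 FPKM. Among these 7, Acta2, Myh11, Notch3 and Cspg4 were at only 35.51, 14.39, 8.08 and 3.99 FPKM in knockout library 1, where the sum was 1703 FPKM. That sum thus came mainly from the other markers of the list, Rgs5, Pdgfrb and Des, and which cells it stems from was not tested. It is therefore not read as a measure of smooth muscle or pericytes. Every marker of either list was highest in knockout library 1.

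Slow fibre transcripts and heat shock genes moved with it too. The 14 slow fibre genes summed to 3846, 2185 and 260.2 FPKM in Tmem182 knockout muscle, while wild-type muscle had 1157, 169.1 and 895.8 FPKM. By FPKM 6 members (Egr1, Egr3, Fos, Fosb, Arc and Socs3) were likewise highest in knockout library 1 and lowest, among the knockout, in library 3. In wild type the slow fibre sum was lowest in library 2. There Egr3, Fos and Fosb were highest of the wild-type libraries, Egr1 and Socs3 were lowest, and Arc lay between. When edgeR was given the slow fibre level as a further term, Egr1, Egr3 and Fos had log2 fold changes of 1.10, 0.39 and 0.45. Fosb, Arc and Socs3 had 0.50, 0.58 and 0.91, and Junb, not among these 6, had 0.56. The 10 heat shock genes summed to 1650, 1083 and 1127 FPKM across the knockout trio and 1088, 1018 and 992.5 FPKM across the wild-type trio. Of these, 9 had a higher fitted level in the knockout (median log2 fold change 0.33, or 0.07 without knockout library 1) and 0 were called. Hspa8, the constitutive cytosolic chaperone, was at 909.87, 572.68 and 576.33 FPKM where Tmem182 was knocked out, compared with 583.66, 439.17 and 501.29 FPKM in wild-type muscle. Hspa5, the chaperone of the endoplasmic reticulum, was at 56.86, 45.03 and 40.71 FPKM across the knockout trio and 38.28, 33.73 and 36.36 FPKM across the wild-type trio (log2 fold change 0.32, SE 0.10). Without knockout library 1 the log2 fold change was 0.29 for Hspa5 and 0.22 for Hspa8, against 0.35 for Hspa8 with all libraries.

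Other immediate early genes did not move as a group. Of 44 further AP-1, EGR and other immediate early genes tested, 0 were called at an adjusted p of 0.05 by edgeR's quasi-likelihood test, in a comparison that called 1 of 12774 genes (0.00783%), Tmem182 itself. Fitted levels were higher in the knockout for 21 of the 44, with a median log2 fold change of -0.01 (-0.15 without knockout library 1), against 0.58 for the 10 members that this contrast had chosen. All knockout libraries lay above all wild-type libraries for 1 of the 44 and below for 0, next to 5.86% and 1.7% of all genes. Nothing is read from counts this small. The 1 gene was Plk3, a polo-like kinase of the stress response. It was at 1.24, 0.96 and 0.77 FPKM where Tmem182 was knocked out, compared with 0.69, 0.70 and 0.37 FPKM in wild-type muscle. The orphan nuclear receptor Nr4a1, named here after its values were seen, was at 79.38, 81.33 and 83.93 FPKM in Tmem182 knockout muscle, while wild-type muscle had 70.62, 113.74 and 65.43 FPKM (log2 fold change -0.08, SE 0.23).

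Within the AP-1 and EGR families the remaining genes gave 0 calls among 8 tested. Fosl2, a Fos subunit, was at 3.32, 2.25 and 2.47 FPKM across the knockout trio and 2.96, 3.25 and 2.72 FPKM across the wild-type trio (log2 fold change -0.23, SE 0.12). Egr2, which drives myelination in Schwann cells, was at 0.62, 0.12 and 0.24 FPKM where Tmem182 was knocked out, compared with 0.26, 0.10 and 0.28 FPKM in wild-type muscle. Maff, a small Maf protein, had a log2 ratio of 0.58 (SE 0.42) and Atf7, a CREB-type factor, of -0.18 (SE 0.13). Egr4, Fosl1, Batf and Batf3 were listed at 0 in at least 1 library and were too low to be tested.

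Among 16 other immediate early transcription factors 0 were called, and 7 had a higher fitted level in the knockout. Per1, a clock repressor that also responds to glucocorticoids, was at 4.82, 4.13 and 3.95 FPKM in Tmem182 knockout muscle, while wild-type muscle had 7.70, 7.06 and 3.93 FPKM (log2 fold change -0.59, SE 0.21). Myc, the growth-promoting factor, was at 1.75, 1.60 and 1.79 FPKM in Tmem182 knockout muscle, while wild-type muscle had 3.43, 1.49 and 3.22 FPKM (log2 fold change -0.72, SE 0.30). Both overlapped, since 1 wild-type library was as low as the knockout. Klf10 showed the pattern of a single high library, at 16.40, 2.87 and 4.34 FPKM across the knockout trio and 4.71, 2.63 and 5.10 FPKM across the wild-type trio. Cebpd, a C/EBP factor of the acute phase response, had a log2 ratio of -0.49 (SE 0.30). Among 20 other immediate early effectors tested 0 were called; the small GTPase gene Rnd3, the kinase genes Sgk1 and Sik1 and Plk3 had log2 ratios of 0.70 (SE 0.30), -0.31 (SE 0.15), 0.46 (SE 0.23) and 0.68 (SE 0.28).

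Upstream and feedback genes were covered, with the genes above, by 8 lists holding 119 tested genes other than the members. None was called by edgeR or by DESeq2. By edgeR, 8 of the 119 (6.72%) had an unadjusted p under 0.05, against 453 of all genes (3.55%). Of these 8, 4 were higher in the knockout and the rest lower. The median log2 fold change of the 119 was 0.01 (-0.04 without knockout library 1). All knockout libraries lay above all wild-type libraries for 5 of the 119 (4.20%) and below for 3 (2.52%), next to 5.86% and 1.7% of all genes.

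Among the kinases and their brakes few genes had groups that did not overlap. Dusp10, a phosphatase that inactivates p38 and JNK, was at 32.93, 35.50 and 34.56 FPKM where Tmem182 was knocked out, compared with 24.02, 19.13 and 26.98 FPKM in wild-type muscle (log2 fold change 0.50, SE 0.17, or 0.63 without knockout library 1). Mapkapk2, a kinase under p38, was at 154.39, 117.36 and 115.89 FPKM across the knockout trio and 113.89, 101.63 and 107.44 FPKM across the wild-type trio. Map2k3, which activates p38, was lower in each knockout library, at 84.38, 77.85 and 76.47 FPKM where Tmem182 was knocked out, compared with 88.89, 89.76 and 90.68 FPKM in wild-type muscle, and so was the ribosomal S6 kinase gene Rps6ka2, at a log2 fold change of -0.15 (SE 0.12). Among 21 MAP kinase cascade genes and 15 feedback genes tested, 0 were called. The kinase genes Rps6ka5 and Rps6ka4, whose products phosphorylate CREB, had log2 ratios of 0.37 (SE 0.15) and 0.27 (SE 0.14). The brakes Dusp6, Dusp7 and Zfp36, the last a factor of messenger decay, had 0.43 (SE 0.24), -0.20 (SE 0.18) and 0.21 (SE 0.20).

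Regulators that act at these promoters gave 0 calls among 14 tested. Mkl1, a coactivator of serum response factor, was at 18.77, 15.51 and 25.22 FPKM in Tmem182 knockout muscle, while wild-type muscle had 29.48, 29.05 and 23.43 FPKM (log2 fold change -0.50, SE 0.21). Elk4, a ternary complex factor, had a log2 ratio of 0.19 (SE 0.10), and the CREB coactivators Crtc1 and Crtc3 had -0.15 (SE 0.09) and -0.16 (SE 0.11). Among 8 corepressors and targets of EGR factors 0 were called. Gadd45a, a growth arrest gene, was lower in each knockout library, at 8.73, 7.92 and 7.49 FPKM in Tmem182 knockout muscle, while wild-type muscle had 10.06, 10.02 and 11.85 FPKM (log2 fold change -0.47, SE 0.14). The corepressor genes Nab1 and Nab2, which EGR factors themselves induce, had log2 ratios of 0.18 (SE 0.24) and 0.19 (SE 0.27), and the phosphatase gene Ptp4a1 of 0.15 (SE 0.10).

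The IL-6 and JAK-STAT3 pathway, which governs Socs3, had 19 tested genes, 0 of them called and 14 with a higher fitted level in the knockout (median log2 fold change 0.12). Cish, a sister of Socs3 induced through STAT5, was at 47.13, 36.14 and 12.78 FPKM across the knockout trio and 15.72, 8.54 and 22.59 FPKM across the wild-type trio (log2 fold change 0.91, SE 0.47). As with Socs3, knockout libraries 1 and 2 were highest and library 3 lay among the wild type. Jak1, a kinase of cytokine receptors, was at 50.49, 52.65 and 51.35 FPKM across the knockout trio and 42.20, 45.46 and 44.21 FPKM across the wild-type trio (log2 fold change 0.17, SE 0.14). Ptpn11, a tyrosine phosphatase downstream of these receptors, was at 37.30, 25.33 and 26.66 FPKM where Tmem182 was knocked out, compared with 23.37, 22.37 and 25.01 FPKM in wild-type muscle. Bcl3, an IkB-family coregulator, had a log2 ratio of 0.44 (SE 0.27). The cytokine genes Il6 and Osm were listed at 0 in at least 1 library and were too low to be tested.

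The genes whose profile over the 6 libraries was most like the mean of the members, by Pearson's r on log2 CPM among 10323 other genes of at least 1 FPKM, were Ahsa2 (0.995), Mvp (0.994), Arhgap44 (0.993), Stom (0.988) and Rps6ka4 (0.987). All 5 had their highest value in knockout library 1; Stom, a membrane protein gene, was at 26.03, 12.35 and 10.30 FPKM where Tmem182 was knocked out, compared with 9.92, 8.29 and 8.11 FPKM in wild-type muscle. With each group's mean subtracted, so that the contrast itself plays no part, the 5 most alike were Mvp (0.999), Anpep (0.999), Ier3 (0.997), Nudt13 (0.997) and Gltp (0.997), again all highest in knockout library 1. Ier3, itself an immediate early gene, was at 6.10, 2.96 and 2.24 FPKM in Tmem182 knockout muscle, while wild-type muscle had 3.44, 2.95 and 2.68 FPKM. These correlations describe 6 libraries and share that 1 high library.

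Gene structure played no part in the choice of members, and 9 of the 10 were compact, spanning under 10 kb, as did 23.0% of all genes; Atf3 was the exception, at 47744 bases. By GENCODE M21 they had 1 to 4 exons, with a median of 2, against a median of 9 over 12538 tested genes with a coding model, of which 21.0% had 4 exons or fewer. Their median span was 4102 bases against 25053 bases, although their median transcript length of 2804 bases was close to the 3223 bases of all genes. In the 3′ UTR, where AU-rich motifs direct rapid decay of messengers, ATTTA occurred in 8 of 10 members and in 69.5% of all tested genes, and the longer TATTTAT in 5 members (Atf3, Jun, Fosb, Socs3 and Fos) and in 30.1% of genes. Median 3′ UTR lengths were 1225 bases for the members and 1178 bases for all genes. Ier2 and Arc held no ATTTA, while Fos had the most per length, at 4.91 per kilobase.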

How the data were processed

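Each library had 1 deposited table of 19458 genes with a count and an expression value. The authors' counts are expected counts (26.2% to 27.5% of a library's values have decimals) with no normalization, and they total 16212341 to 18672630 per library. The deposited expression values are FPKM, rounded to 2 decimals. The submitters' processing notes name RSEM 1.2.12, Bowtie2 2.2.5, HISAT2 2.0.4 and GRCm38. No source used here gives what each tool did, the annotation, read filters or any use of strand. Reads shared by several transcripts are apportioned by RSEM.

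Counts were rounded, filtered with filterByExpr of edgeR (minimum count 10, leaving 12774 genes), scaled by TMM and fitted with edgeR 4.0.16 under R 4.3.3. Its quasi-likelihood test was two-sided, p-values were adjusted by Benjamini and Hochberg's method across every tested gene, calls were made at 0.05, and the model held genotype alone. Each standard error is the size of the log2 fold change divided by the root of its F statistic. The common biological coefficient of variation was 18.8%. The fit was tested on simulated data. No pair of libraries agreed within counting noise (chi-square per degree of freedom at least 12.9).

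Members and lists were chosen with earlier results of these data known. The text names all 10 members, up to 4 genes per list with the smallest p, genes of lists with separate groups, and the 5 genes most alike in profile by each of 2 measures; a few more were chosen after their values were seen and are said to be, and 1 gene under this rule is left unreported. Cyr61, Ctgf, Mkl1, Mkl2 and Adgre1 were matched under these symbols. Alternatives were a replicate block, no filter on low counts, DESeq2 1.42.0 for its size factors and for its Wald test, limma 3.58.1 on log2(FPKM + 1) and log2(FPKM + 0.1), a minimum mean of 5 FPKM, voom with quality weights per library, the slow fibre level as covariate, an adjusted p of 0.10, and each library left out.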

Additional observations from a re-analysis of the deposited data

How the results depend on the processing

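Of 144 log2 fold changes of single members under the alternatives, 137 kept their sign and moved by less than the spread between replicates. Of the rest, 2 kept their sign but moved further, and 5, all of Atf3, changed sign. The spread is each gene's own SD between replicates, so a variable gene could move far and still count among the 137. Fosb did so, from 0.52 to 0.11 without knockout library 1, and Jun from -0.38 to -0.05 without wild-type library 1. Atf3 changed sign with library quality weights (-0.29) and with the slow fibre level as covariate (-0.24), and ran from -0.75 to 0.80 with single libraries left out; Arc moved to 0.37 on log2(FPKM + 1), where low genes are compressed, and Egr3 to 0.0017 without knockout library 1. The members' median log2 fold change of 0.58 ran from 0.30 to 0.85 with single libraries left out and from 0.38 to 0.59 otherwise; it could not be given at a mean of at least 5 FPKM, which leaves out 6 of the 10. Members with all knockout libraries above all wild-type libraries numbered 3 to 7 with single libraries left out (7 without knockout library 3), and 3 by CPM with either scaling. Over all genes, 1 was called by edgeR; DESeq2 called 6 and edgeR with the slow fibre covariate 2, and 0 or 1 were called with single libraries left out (0 without knockout library 2 or wild-type library 3). No pathway gene was called under any alternative.

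The labels do not say whether the replicate numbers pair the libraries. Deviations from the group means correlated at 0.52, 0.18 and -0.12 for numbers 1, 2 and 3. Knockout libraries 1 and 2 each correlated best with the wild-type library of the same number, but knockout library 3 with wild-type library 2 (0.43). Deviations from means of 3 libraries are too few for these values to settle whether the numbers pair them. With a replicate block 1 gene was called and the members' median was 0.59. Egr3, Fosb and Arc had 11 to 72 counts, with 3 libraries a group. For Egr3 and Fosb, differences of the size seen were within the spread between libraries or rested on single ones. For Arc, knockout libraries 1 and 2 lay above all wild-type libraries, and knockout library 3 lay among them. The Arc log2 fold change ran from 0.56 to 1.19 with single libraries left out. The cause of the differences between libraries was not tested.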

Other observations

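Genes that answer to glucocorticoids, hormones that rise with stress and with the time of day, gave 0 calls among 11 tested by edgeR, and their median log2 fold change was 0.03, or -0.22 without knockout library 1. Tsc22d3, a glucocorticoid-induced leucine zipper gene, was at 53.81, 42.46 and 66.57 FPKM in Tmem182 knockout muscle, while wild-type muscle had 64.95, 76.06 and 57.94 FPKM (log2 fold change -0.33, SE 0.20). Zbtb16, another gene of this list, was at 24.23, 12.58 and 11.73 FPKM across the knockout trio and 13.27, 10.50 and 10.74 FPKM across the wild-type trio (log2 fold change 0.38, SE 0.19). Sgk1 and Per1, which belong to both this list and the immediate early genes, had lower means in the knockout, at log2 ratios of -0.31 (SE 0.15) and -0.59 (SE 0.21). The groups overlapped for each of these 4 genes.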
